A study of Homo sapiens with 8 samples.

Results

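Genes of protein folding, export and degradation in the endoplasmic reticulum (ER) were followed in BCPAP and CAL-62, 2 established lines of human thyroid cancer, treated with THZ1. The 36 genes were taken from a list: XBP1, the 2 ER stress sensors ATF6 and ERN1, 12 chaperones and their partners, 5 genes of disulfide formation, 8 of ER-associated degradation and 8 of protein translocation and signal cleavage. XBP1 was chosen with its fall in CAL-62, among the largest in these data, already known, so that fall is described here with no test. The tables held 35 of the 36 genes in both lines, among 12715 genes listed for either line. ERN1, which encodes the sensor IRE1, was in neither table.

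THZ1 is a covalent inhibitor of CDK7, a kinase of the general transcription factor TFIIH, and the study compared it with the vehicle DMSO. Cells of each line received THZ1 at 100 nM for 6 h or DMSO, with 2 poly(A)-selected RNA-seq libraries in each of the 4 groups. The labels call both lines anaplastic thyroid carcinoma. BCPAP was grown in RPMI-based medium with 10% serum and CAL-62 in DMEM with 20% serum, so the lines also differ in medium. Nothing in the labels ties replicates to separate cultures. The p-values therefore reflect only how far these libraries differ, which may be technical variation. For a gene in both tables the spread was fitted over all 8 libraries. Its standard error (SE) is therefore the same in both lines and is not that of 1 line's replicates. Each table starts at a DMSO mean of about 1, so a gene below that level under DMSO would not be listed.

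Proteins that enter the ER fold there with the help of chaperones and disulfide isomerases, and those that fail are sent back to the cytosol and degraded. When unfolded proteins build up, IRE1 cuts the XBP1 mRNA so that an active transcription factor is made, ATF6 is cleaved to release another, and PERK slows translation and favours ATF4 and CHOP. XBP1 and ATF6 are known activators of the chaperone, translocation and degradation genes followed here, and secretory tissues such as the thyroid depend on them. The values counted all reads of the XBP1 gene, so the cut and uncut forms of its mRNA could not be separated.

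Each library held between 16682509 and 19989730 reads in listed genes, and 34 of the 35 members had over 100 reads in every library. The exception was DNAJB9, with 63 reads in its lowest library. Among thyroid lineage genes, PAX8 and HHEX were in both tables, NKX2-1 and FOXE1 only in that of BCPAP, and TG, TSHR and SLC5A5 in neither. Of the markers of other cells, all 4 endothelial genes, 4 of 5 blood genes and 4 of 5 fibroblast genes were in neither table, and CD68 and COL1A1 were in both. The libraries were bulk RNA, in which fewer expressing cells and less RNA per cell cannot be told apart. Because the deposited scaling levels the typical gene within a line, these values cannot show whether total mRNA per cell changed.

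Sequence elements through which XBP1 and ATF6 are known to act were searched in RefSeq promoter windows (build GRCh38.p14, 250 bases before to 50 bases after a start site) of the 33 members with an entry. The ER stress response element ERSE, CCAAT and CCACG spaced by 9 bases on either strand, was in windows of 8 members: XBP1, HSPA5, HSP90B1, CRELD2, CALR, CANX, SERP1 and PDIA6. HSP90B1 held 2 sites. The element was in 10 of the 42 windows of the 33 members (23.8%), against 27 of all 35116 windows (0.0769%). Of these 10 windows, 3 are overlapping windows of CANX that hold the same site. XBP1 and ATF6 are known activators of such genes. Higher shares of this element and of the related ones below thus follow from how the members were listed. The sites of 6 of these members are shown in the direction of the element, because the genes carrying it had unlike changes after THZ1. Capitals mark its fixed bases.
XBP1: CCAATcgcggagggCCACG
HSPA5: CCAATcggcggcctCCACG
CRELD2: CCAATccgagttcgCCACG
CALR: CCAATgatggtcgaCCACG
PDIA6: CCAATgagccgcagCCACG
SERP1: CCAATtcgctgtctCCACG
The XBP1 site lay 52 to 34 bases before the start site (chr22:28800603-28800621), that of CRELD2 80 to 62 bases before (chr22:49918554-49918572) and that of PDIA6 86 to 68 bases before the second of its start sites (chr2:10812853-10812871). A related element, ERSE-II (ATTGG and CCACG spaced by 1 base, either strand), was in windows of HYOU1, SDF2L1 and HERPUD1, which is 3 of the 42 windows (7.14%) against 0.0541% of all windows. The XBP1-binding element UPRE (TGACGTGG, either strand) was in windows of HYOU1 and SSR3 (4.76% against 0.729%), and in HYOU1 it overlapped 1 of the 2 ERSE-II sites. A match shows only that these letters are present.

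The 250 bases before the start site are given for XBP1 (minus strand, chr22:28800570-28800819), for HERPUD1 (plus strand, chr16:56931892-56932141) and for CRELD2 (plus strand, chr22:49918384-49918633). These genes are shown because both THZ1 libraries of CAL-62 lay below DMSO for XBP1 and HERPUD1 and above it for CRELD2. Capitals mark the fixed bases of the ERSE in XBP1 and CRELD2, where CRELD2 carries it on the opposite strand, and of the ERSE-II in HERPUD1.
XBP1: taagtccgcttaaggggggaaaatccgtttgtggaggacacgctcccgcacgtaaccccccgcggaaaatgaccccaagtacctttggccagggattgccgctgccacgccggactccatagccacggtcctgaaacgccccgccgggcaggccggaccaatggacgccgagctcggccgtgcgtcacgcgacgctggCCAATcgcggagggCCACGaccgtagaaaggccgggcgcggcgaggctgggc
HERPUD1: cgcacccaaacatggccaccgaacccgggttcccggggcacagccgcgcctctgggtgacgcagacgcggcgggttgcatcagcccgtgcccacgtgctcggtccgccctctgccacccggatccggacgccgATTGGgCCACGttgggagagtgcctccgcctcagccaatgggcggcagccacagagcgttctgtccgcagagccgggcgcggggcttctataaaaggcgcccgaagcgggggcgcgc
CRELD2: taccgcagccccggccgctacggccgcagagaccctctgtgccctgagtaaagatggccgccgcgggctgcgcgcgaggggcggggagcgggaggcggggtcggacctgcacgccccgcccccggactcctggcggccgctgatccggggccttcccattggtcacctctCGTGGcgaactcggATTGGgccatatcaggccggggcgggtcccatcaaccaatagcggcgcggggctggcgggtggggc

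In CAL-62, XBP1 went down with THZ1 while most of the folding and translocation genes had higher values on the deposited scale. Of the 34 members other than XBP1, 1 passed the test in CAL-62, PDIA6, and it was higher. The test was limma on log2(value + 1), with Benjamini-Hochberg adjustment over all genes and a threshold of 0.05. By the same test 4.62% of all genes were called in CAL-62, 4.04% lower and 0.581% higher. Of the 35 members, 30 had a positive change (THZ1 minus DMSO) and 5 a negative one, where 51.8% of all 11362 genes tested were positive. The member median was 0.50, against 0.031 for all genes. This direction did not hold under every scaling: the member median was -0.14 with libraries scaled to the sum of values and -0.46 with ribosomal protein genes as the reference. In those scalings the median of all genes moved further down, to -0.51 and -0.78, and the members stayed 0.37 and 0.32 above it.

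Both THZ1 libraries of CAL-62 lay above both DMSO libraries for 20 members and below them for 5, and the groups overlapped for 10. Of all genes tested, 30.1% lay above and 27.4% below in this way. The 5 below were XBP1, the chaperone partner DNAJB9 and 3 genes of degradation, HERPUD1, SYVN1 and EDEM3. Leaving XBP1 aside, 15 members were higher and 3 lower in CAL-62 at an unadjusted p under 0.05 (limma). Of all 11362 genes, 3418 (30.1%) were under that mark. Those genes were not counted by direction, so the 15 and 3 cannot be set against all genes in that way.

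On the deposited scale, the few cell type markers listed for CAL-62 outside the thyroid lineage also had positive changes, none past the test (limma). The thyroid lineage genes listed there went both ways. PAX8 measured 91.1 and 117 under DMSO and 5.20 and 29.8 with THZ1 (change -2.92, limma adjusted p = 0.0469, called lower). HHEX had a change of 0.84 (limma adjusted p = 0.217). The epithelial keratins KRT8 and KRT18 had changes of 1.03 and 0.86, and 4 of 5 epithelial markers were listed, all 4 with positive changes. CD68, the 1 blood marker listed, measured 16.3 and 13.2 under DMSO and 26.3 and 25.0 with THZ1 (change 0.77). COL1A1, the 1 fibroblast marker listed, measured 39.8 and 31.0 under DMSO and 62.3 and 32.0 with THZ1, with overlap. Both are established cell lines, so a listed marker does not by itself show cells of another type. How these markers relate to the members' changes was not tested.

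**Figure D1:**
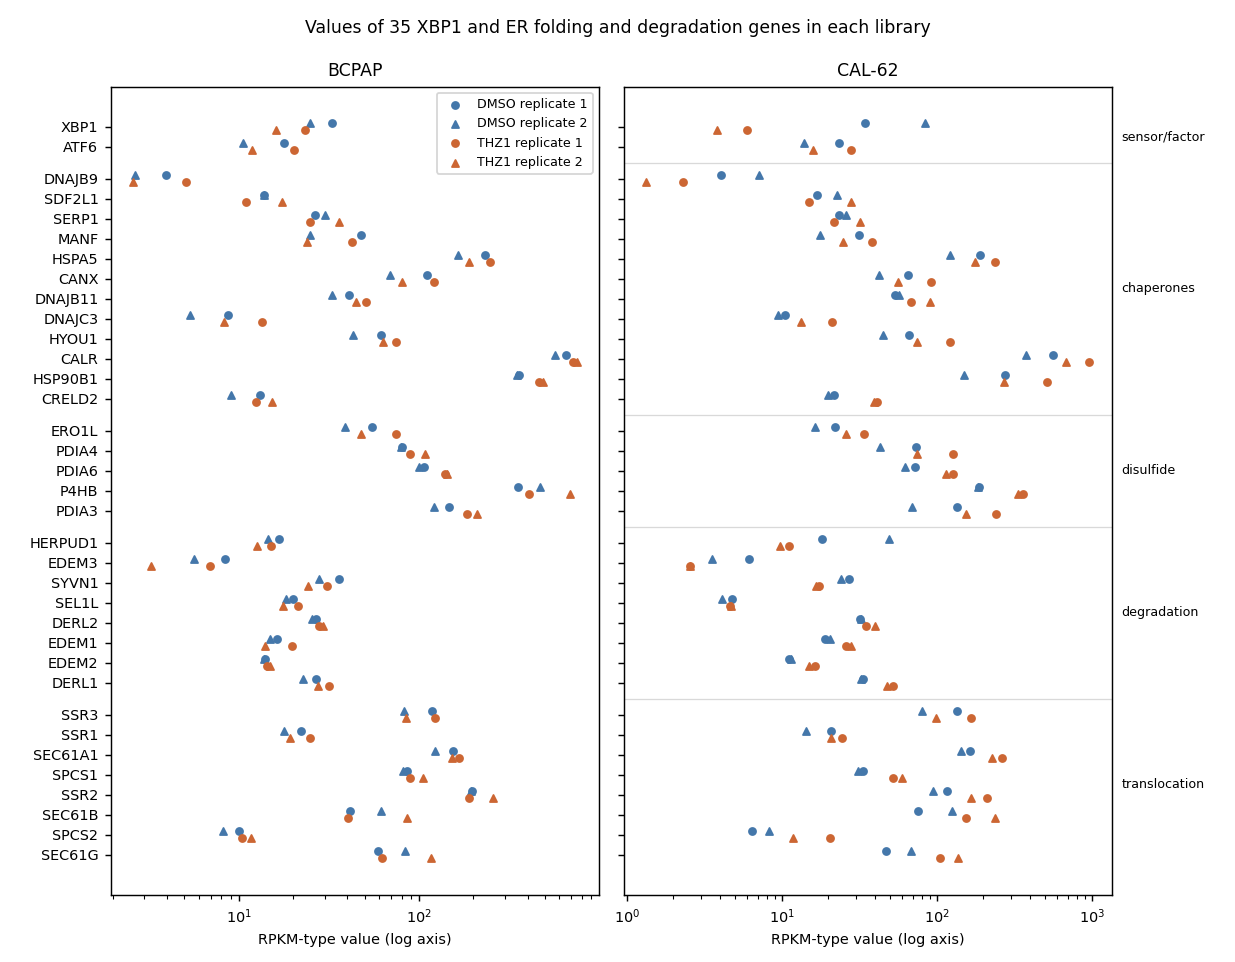
RPKM-type values (log axis) of the 35 members in each library of BCPAP (left) and CAL-62 (right), ordered by role, with DMSO in blue, THZ1 in orange, circles for replicate 1 and triangles for replicate 2. In CAL-62 the XBP1 values after THZ1 (5.97 and 3.82) lie far to the left of its DMSO values (34.3 and 83.8), while PDIA6 and SPCS1 lie to the right of theirs.

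XBP1, the transcription factor of the IRE1 arm, measured 34.3 and 83.8 (RPKM-type values) in CAL-62 cells given DMSO, and 5.97 and 3.82 with THZ1. Its reads numbered 1346 and 3595 with DMSO and 150 and 130 with THZ1. Both THZ1 libraries were below both DMSO libraries, and the DMSO libraries themselves differed 2.45-fold. Its change was -3.24, the 5th lowest of 11362 genes. Without the higher DMSO library, replicate 2, the change was -2.61. In BCPAP, XBP1 measured 32.9 and 24.8 under DMSO and 23.4 and 16.1 after THZ1, again with no overlap. The BCPAP change of -0.54 (SE 0.42) did not pass the test (limma adjusted p = 0.932). That SE also takes in the gap between the CAL-62 DMSO libraries.

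The sensor ATF6, a membrane protein that is cleaved into a transcription factor, measured 23.3 and 13.9 under DMSO and 27.9 and 15.9 with THZ1 in CAL-62. In BCPAP it measured 17.9 and 10.5 under DMSO and 20.4 and 11.8 after THZ1. The groups overlapped in both lines, and replicate 1 was the higher library in each of the 4 groups. Its changes were 0.22 (SE 0.41, limma adjusted p = 0.752) in CAL-62 and 0.17 (SE 0.41, limma adjusted p = 0.964) in BCPAP.

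Among the 12 chaperones and partners no member passed the test in either line. The class median change was 0.47 in CAL-62 and 0.22 in BCPAP, with 11 of 12 positive in each; with the sum of values or ribosomal protein genes as the reference it was -0.16 and -0.49 in CAL-62 and near 0 in BCPAP. HSPA5, the ER chaperone BiP that also holds the sensors inactive, measured 190 and 121 under DMSO and 237 and 177 with THZ1 in CAL-62. The BCPAP libraries held 232 and 164 under DMSO and 247 and 189 after THZ1. HSPA5 groups overlapped in both lines, with changes of 0.43 (SE 0.31, limma adjusted p = 0.374) and 0.15 (SE 0.31, limma adjusted p = 0.961).

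CRELD2, an ER protein released under stress, had the highest change of this class in CAL-62. Its values were 21.9 and 19.9 under DMSO and 41.5 and 39.2 after THZ1, so the groups were well apart while each pair of replicates was close. The change of 0.92 (SE 0.23) missed the threshold (limma adjusted p = 0.0624). In BCPAP the CRELD2 values of 13.2 and 9.004 under DMSO and 12.4 and 15.3 after THZ1 overlapped. HSP90B1, the ER form of HSP90, measured 275 and 151 under DMSO and 516 and 273 with THZ1 in CAL-62, where replicate 1 was the higher in both groups and the groups just overlapped. Its change was 0.88 (SE 0.37, limma adjusted p = 0.160). In BCPAP HSP90B1 measured 358 and 347 under DMSO and 463 and 484 after THZ1, with no overlap (change 0.42, limma adjusted p = 0.932).

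DNAJB9, an ER-resident co-chaperone of BiP, was the only chaperone gene with a negative change in CAL-62 on the deposited scale. There it measured 4.07 and 7.12 under DMSO and 2.31 and 1.33 after THZ1, and as in XBP1 the DMSO library of replicate 2 was the higher. The change of -1.21 (SE 0.37) did not pass the test (limma adjusted p = 0.0838). It passed with the sum of values or the ribosomal protein genes as the reference, where 22.2% and 29% of all genes were called lower. In BCPAP the DNAJB9 values of 3.96 and 2.64 under DMSO and 5.07 and 2.60 after THZ1 overlapped (change 0.14).

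The lectin chaperone CALR, calreticulin, had the highest mean value of all members in each of the 4 groups. It measured 563 and 379 under DMSO and 965 and 680 with THZ1 in CAL-62, without overlap (change 0.81, limma adjusted p = 0.116). The chaperone HYOU1 (change 0.80) and the co-chaperones DNAJC3 (0.69) and DNAJB11 (0.50) were also without overlap in CAL-62, with both THZ1 libraries the higher. The groups overlapped for CANX, the membrane-bound relative of CALR (change 0.45), and for MANF, a secreted ER stress protein (0.36). They also overlapped for SDF2L1, a partner of ER co-chaperones (0.07), and for SERP1, a small protein of the translocation site (0.09).

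All 5 genes of disulfide formation lay above DMSO without overlap in CAL-62, with changes from 0.62 to 0.98 and a median of 0.84; their median was 0.20 with the sum of values as the reference and -0.12 with ribosomal protein genes. PDIA6, a disulfide isomerase, measured 72.1 and 62.4 under DMSO and 127 and 114 with THZ1 in CAL-62. PDIA6 passed with a change of 0.84 (SE 0.19, limma adjusted p = 0.0476). The call held in 7 of 20 other settings, and over all 20 its limma adjusted p ranged from 0.00774 to 0.748. Leaving out either DMSO library of either line or either CAL-62 THZ1 library ended the call. Each of these fits has 1 library in a group, and each also called fewer genes higher over all genes. In BCPAP, PDIA6 measured 106 and 100.1 under DMSO and 140.1 and 143 after THZ1, also without overlap (change 0.46, SE 0.19, limma adjusted p = 0.932).

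PDIA3, an isomerase that works with CALR and CANX, measured 136 and 69.4 under DMSO and 241 and 154 with THZ1 in CAL-62. The groups were apart, but the spread between replicates was wide and the change of 0.98 (SE 0.35) did not pass (limma adjusted p = 0.116). In BCPAP it measured 146 and 120.4 under DMSO and 183 and 210 after THZ1 (change 0.56). P4HB, the founding disulfide isomerase, measured 189 and 185 under DMSO and 359 and 335 with THZ1 in CAL-62, again apart (change 0.89, SE 0.29, limma adjusted p = 0.0956). Its BCPAP values of 355 and 468 under DMSO and 406 and 689 after THZ1 overlapped, and their spread enters the same SE. PDIA4 and ERO1L, the oxidase that recharges the isomerases, had changes of 0.80 and 0.62 in CAL-62 and 0.30 and 0.35 in BCPAP.

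**Figure D2:**
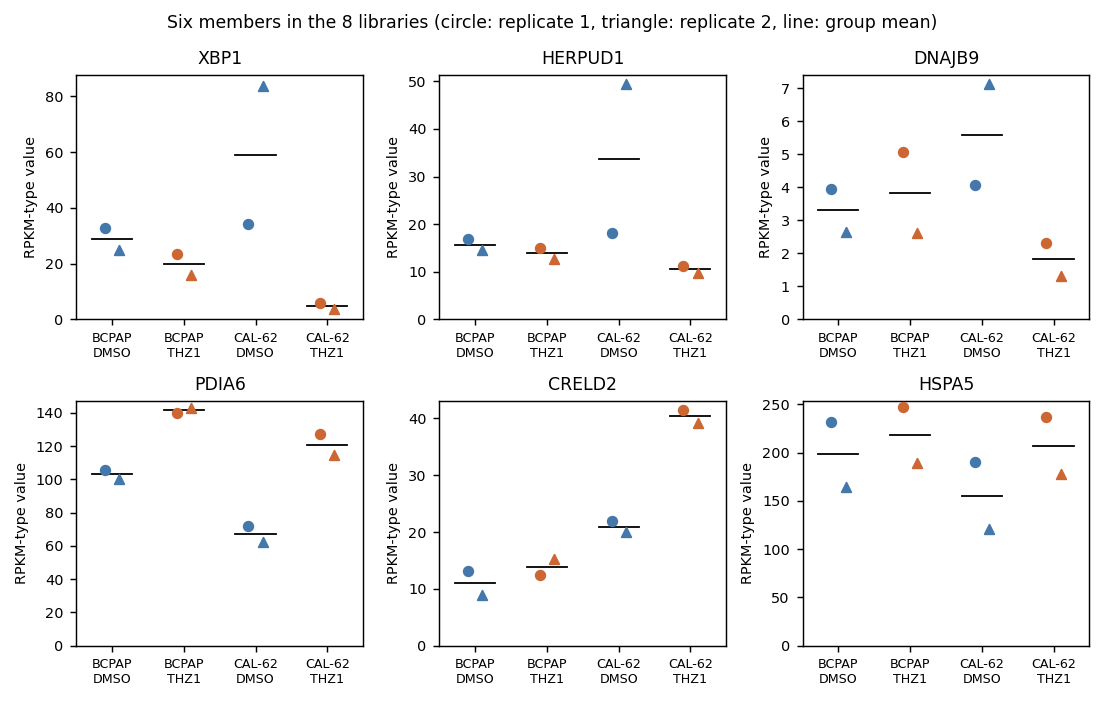
RPKM-type values of XBP1, HERPUD1, DNAJB9, PDIA6, CRELD2 and HSPA5 in the 8 libraries (circles replicate 1, triangles replicate 2, lines group means), each panel from 0. In CAL-62 the upper 3 genes are lower after THZ1 and highest in DMSO replicate 2, PDIA6 and CRELD2 are higher with close replicates, and the HSPA5 groups overlap.

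Of the 8 genes of ER-associated degradation, 4 lay above DMSO and 3 below it without overlap in CAL-62. Of all genes tested, 30.1% lay above and 27.4% below in this way. HERPUD1, SYVN1 and EDEM3 lay below, DERL1, DERL2, EDEM1 and EDEM2 above, and the adaptor SEL1L overlapped. None passed the test on the deposited scale. HERPUD1 and SYVN1 passed, lower, with the sum of values (limma adjusted p = 0.0160 and 0.0151). They also passed, lower, with ribosomal protein genes as the reference (limma adjusted p = 0.0109 and 0.0236). Of all genes tested, 22.2% and 29% were called lower in those 2 scalings. The class median was 0.14, and it was -0.01 with upper-quartile scaling, -0.44 with the sum of values and -0.74 with ribosomal protein genes as the reference. HERPUD1, a membrane protein that gathers the ubiquitin ligase complex, measured in CAL-62 18.1 and 49.5 under DMSO and 11.2 and 9.78 after THZ1. The DMSO libraries differed 2.73-fold, replicate 2 being the higher, and both THZ1 libraries were below both. The change of -1.44 (SE 0.41) missed the threshold (limma adjusted p = 0.0746). In BCPAP the HERPUD1 values of 16.8 and 14.5 under DMSO and 15.01 and 12.7 after THZ1 overlapped (change -0.17).

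SYVN1 encodes HRD1, the ubiquitin ligase at the centre of the pathway. It measured 27.3 and 24.3 under DMSO and 17.3 and 16.6 with THZ1 in CAL-62, with close replicates and no overlap. Its change of -0.58 (SE 0.22) did not pass (limma adjusted p = 0.130). In BCPAP SYVN1 measured 35.8 and 27.95 under DMSO and 30.7 and 24.1 after THZ1, with overlap (change -0.21). EDEM3, a mannosidase of the pathway, measured 6.12 and 3.53 under DMSO and 2.58 and 2.57 with THZ1 in CAL-62, without overlap (change -0.67, SE 0.37, limma adjusted p = 0.259). Its BCPAP values of 8.35 and 5.62 under DMSO and 6.92 and 3.28 after THZ1 overlapped.

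On the other side, DERL1, a channel component of retrotranslocation, measured 33.3 and 32.5 under DMSO and 52.6 and 48.0 with THZ1 in CAL-62. Both replicate pairs were close and the groups apart. The change of 0.60 (SE 0.19, from the libraries of both lines) did not pass (limma adjusted p = 0.092). In BCPAP DERL1 measured 26.7 and 22.6 under DMSO and 31.6 and 27.4 after THZ1, also apart (change 0.25). EDEM2, which trims the first mannose of misfolded glycoproteins, measured 11.1 and 11.5 under DMSO and 16.4 and 15.1 with THZ1 in CAL-62 (change 0.44, SE 0.19, limma adjusted p = 0.165). In BCPAP it measured 14.0 and 13.8 under DMSO and 14.3 and 14.9 after THZ1 (change 0.07). EDEM1, DERL2 and SEL1L had CAL-62 changes of 0.42, 0.21 and 0.06.

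The 8 genes of translocation and signal cleavage all had positive changes in CAL-62, with a median of 0.80. The median was 0.17 with the sum of values as the reference and -0.16 with ribosomal protein genes, and no gene of the class passed on the deposited scale. SEC61G, the small subunit of the translocation channel, measured there 47.0 and 68.7 under DMSO and 106 and 136 after THZ1, the widest change of the class (1.07, SE 0.35, limma adjusted p = 0.0953). In BCPAP it measured 58.9 and 83.2 under DMSO and 62.6 and 116 after THZ1, with overlap. SPCS2, a subunit of signal peptidase, measured 6.47 and 8.24 under DMSO and 20.4 and 11.9 with THZ1 in CAL-62, apart but with unlike THZ1 replicates (change 1.00, SE 0.29, limma adjusted p = 0.0763). In BCPAP SPCS2 measured 10.1 and 8.18 under DMSO and 10.5 and 11.6 after THZ1 (change 0.25).

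SPCS1, the other signal peptidase subunit, came nearest to the threshold in this class. It measured 33.7 and 31.0 under DMSO and 52.3 and 59.4 with THZ1 in CAL-62 (change 0.77, SE 0.19, limma adjusted p = 0.0586). The channel subunits SEC61A1 and SEC61B had changes of 0.68 and 0.97 and lay above DMSO without overlap. The translocon-associated proteins were mixed: SSR2 lay above without overlap (change 0.83, limma adjusted p = 0.0753), while SSR1 and SSR3 overlapped (changes 0.35 and 0.30).

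**Figure D3:**
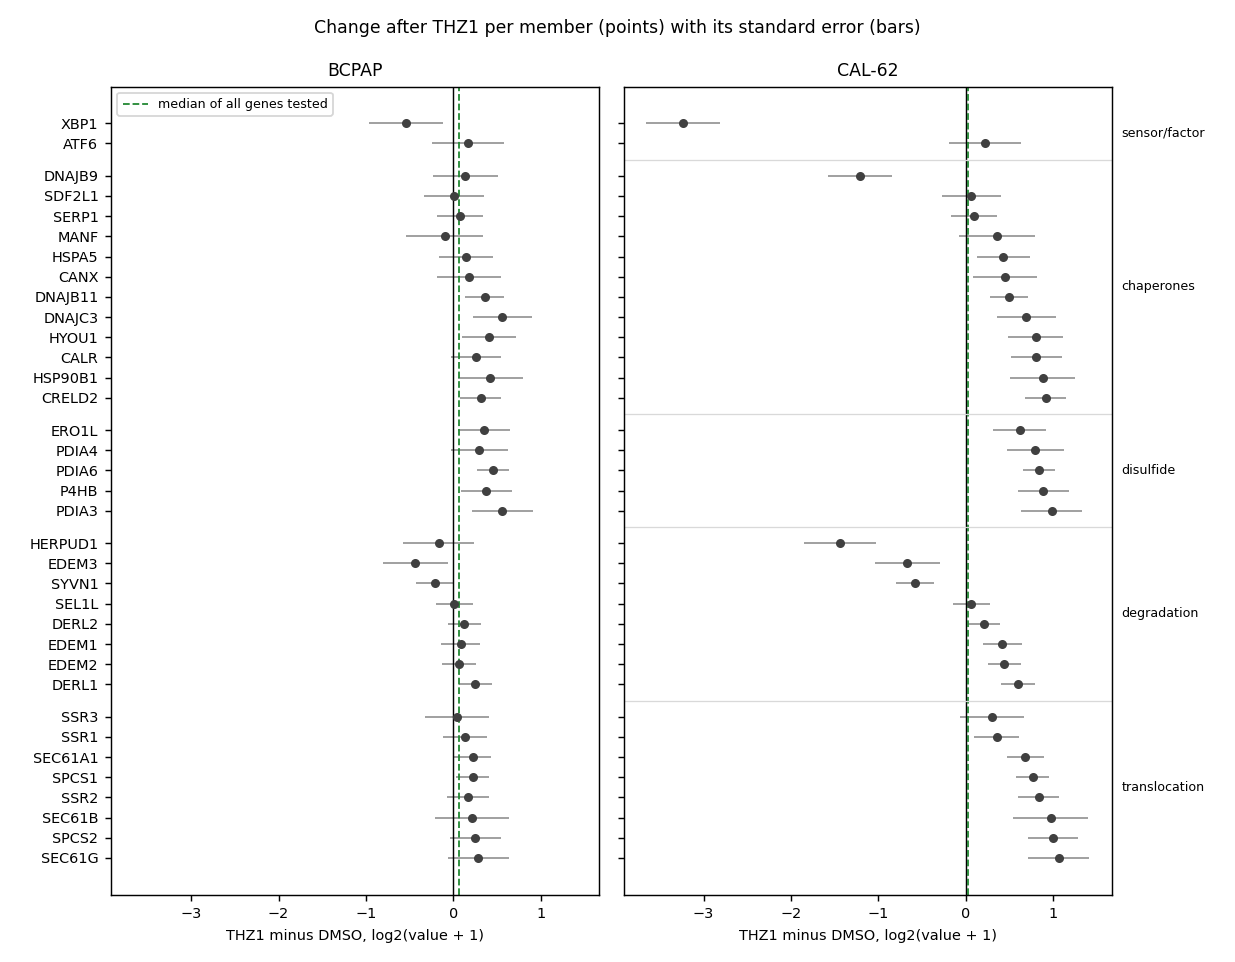
Change after THZ1 (THZ1 minus DMSO, log2(value + 1), points) with its standard error (bars) for each member in BCPAP and CAL-62, deposited scale, with the median of all genes tested as a dashed line. XBP1, HERPUD1 and DNAJB9 lie at -3.24, -1.44 and -1.21 in CAL-62, and 30 of the 35 members lie to the right of 0 in each line, 16 and 14 of them with the sum of values as the reference in CAL-62 and BCPAP.

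In BCPAP no member passed the test (limma), and none did in any of the 20 other settings, limma-voom on reads included. No gene at all passed there (0 of 11743, or 0%), with 471 at an unadjusted p under 0.05, of which PDIA6 was the 1 member. Of the 35 members, 30 had a positive change and 5 a negative one, where 58.6% of all genes were positive. The member median was 0.18, against 0.067 for all genes. That median was -0.03 with the sum of values and with ribosomal protein genes as the reference. Both THZ1 libraries lay above both DMSO libraries for 12 members and below them for 1, XBP1, where 21.9% of all genes lay above and 16.4% below.

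The difference of the responses was tested in the same fit for all 35 members. None passed (limma, CAL-62 minus BCPAP), nor did any of the 10653 genes in both tables (0%), with 562 genes at an unadjusted p under 0.05 and, XBP1 aside, 1 member, DNAJB9. XBP1 had a difference of -2.70 (SE 0.60) and DNAJB9 one of -1.35 (SE 0.52, limma adjusted p = 0.843). On the deposited scale the change had the same sign in both lines and was smaller in BCPAP for 33 of the 35 members. Over the 10653 genes in both tables that held for 60.0%. The median difference over the members was 0.33 with 30 of 35 positive, but it was -0.06 with 13 positive when scaled to the sum of values and -0.37 with 3 positive with ribosomal protein genes as the reference. These tests showed neither a difference between the lines nor its absence.

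Because the scaling moved whole classes, each member was also set against the median of the 35 members in its own library, a measure that no scaling of a library changes apart from the added 1. In CAL-62, XBP1 was 3.54 lower after THZ1 on this log2 measure, HERPUD1 1.74, DNAJB9 1.51, EDEM3 0.97, SYVN1 0.88 and SEL1L 0.24. These 6 lay below DMSO without overlap, 12 members lay above and 17 overlapped. On the same measure 15.3% of all genes lay above and 43.2% below in CAL-62. In BCPAP 4 of these 6 also lay below DMSO without overlap. They were XBP1 (-0.66), EDEM3 (-0.55), SYVN1 (-0.33) and HERPUD1 (-0.29). There 7 members lay above and 24 overlapped, and all genes were not counted on this measure. Summed over the members, values came to 0.669% and 0.581% of all values in CAL-62 under DMSO and to 0.665% and 0.611% after THZ1, so the groups overlapped. In BCPAP the share was 0.809% and 0.759% under DMSO and 0.838% and 0.788% after THZ1.

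**Figure D4:**
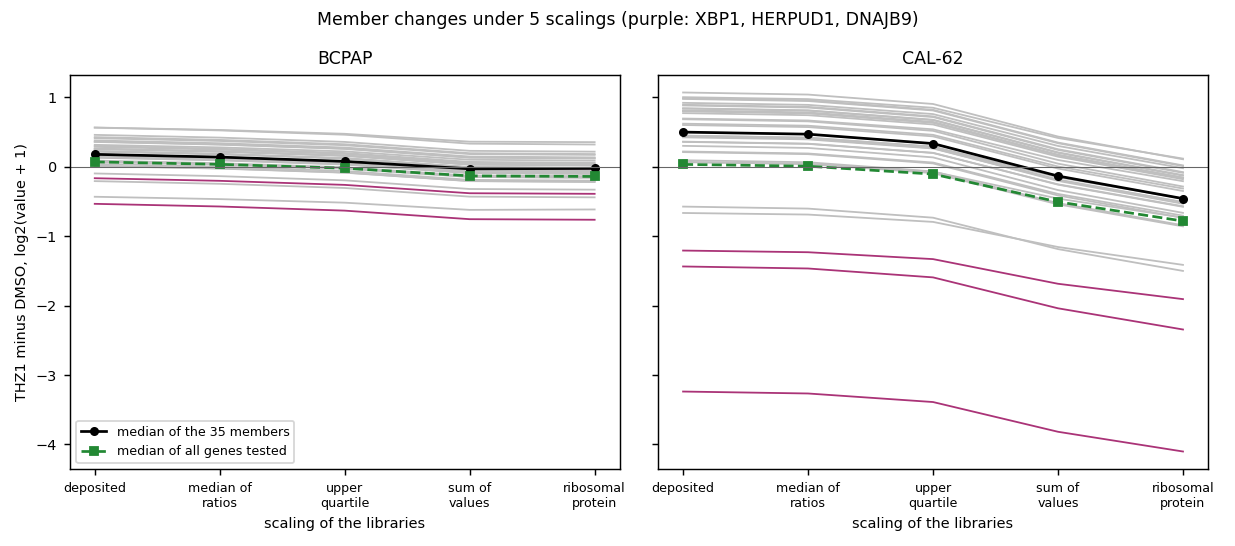
Change after THZ1 of each member (grey, with XBP1, HERPUD1 and DNAJB9 in purple), the member median (black) and the median of all genes (green, dashed) under 5 scalings of the libraries, in log2(value + 1). The CAL-62 member median goes from 0.50 to -0.46 and crosses 0, and it stays above the median of all genes throughout, while XBP1 lies between -3.24 and -4.10.

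The CAL-62 DMSO libraries stood apart from each other in genes of this response. Of 15 genes of the PERK, ATF4 and CHOP arm, 11 were over 2-fold higher in DMSO replicate 2 than in replicate 1 (on the value + 1 scale), against 2.59% of all genes. The other 3 groups had at most 1 such gene among the 15. XBP1 and HERPUD1 were the 2 members over 2-fold higher in that library, whereas HSPA5, HSP90B1 and PDIA3 were 1.57-fold, 1.82-fold and 1.95-fold higher in replicate 1. Without DMSO replicate 2 the HERPUD1 and DNAJB9 changes in CAL-62 were -0.74 and -0.87. The part of this library in those changes was otherwise not tested.

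Other genes of ER protein handling were counted by list in CAL-62 on the deposited scale, where 51.8% of all genes tested had a positive change. Medians of these lists were not taken under other scalings. The PERK, ATF4 and CHOP arm had a median change of -0.92, with 3 of 15 genes positive and none called. Without CAL-62 DMSO replicate 2 its median was -0.34, and the changes of CHAC1 and DDIT3 were -2.33 and -1.62. CHAC1, a glutathione-degrading target of ATF4, had its widest negative change: it measured 9.53 and 100.03 under DMSO and 0.975 and 1.23 after THZ1 (change -3.96, SE 0.89, limma adjusted p = 0.05001, just above the threshold). ASNS, asparagine synthetase, had the widest positive one, with 27.8 and 85.5 under DMSO and 49.7 and 97.8 after THZ1 (change 0.51). DDIT3, which encodes CHOP and was picked after its values were seen, measured 8.89 and 47.3 under DMSO and 2.15 and 2.27 after THZ1 (change -2.77, limma adjusted p = 0.0522). In all 3 genes DMSO replicate 2 was the higher.

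Of the processing proteases and partners of ATF6 and IRE1, 1 of 11 was called. TRAF2, the adaptor that binds active IRE1, fell from 22.5 and 24.2 under DMSO to 9.26 and 10.2 after THZ1 (change -1.18, SE 0.20, limma adjusted p = 0.0261). Of 16 further genes of signal recognition, translocon and signal peptidase, 15 were positive (13 without CAL-62 DMSO replicate 2). The peptidase subunit SEC11C was called. SEC11C rose from 11.8 and 14.2 to 23.6 and 29.1 (change 0.97, SE 0.21, limma adjusted p = 0.0455). The oligosaccharyltransferase and glycan quality control list had 19 of 20 positive changes, a median of 0.69 and no call. Without CAL-62 DMSO replicate 2 this list had 18 positive changes and a median of 0.53. Its extremes were the subunit OST4, with 74.1 and 46.3 under DMSO and 143 and 107 after THZ1, and the glucosidase MOGS, with 37.9 and 34.0 under DMSO and 25.0 and 31.9 after THZ1.

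Among 20 further genes of the degradation machinery, 14 were positive (15 without CAL-62 DMSO replicate 2). FAF2, a UBX-domain recruiter of the p97 ATPase, was called. FAF2 fell from 24.1 and 22.1 to 8.55 and 12.7 (change -1.08, SE 0.24, limma adjusted p = 0.0469). Of 18 further disulfide and prolyl isomerases, 17 were positive, with a median of 0.68 (17 and 0.61 without CAL-62 DMSO replicate 2). Cyclophilin B was called. Its gene PPIB rose from 87.1 and 80.6 to 180.1 and 159 (change 1.01, SE 0.21, limma adjusted p = 0.0417). The COPII coat list had a median of 0.27 (0.12 without CAL-62 DMSO replicate 2), 12 of 18 positive and no call. SEC13, a cage subunit, measured 123 and 113 under DMSO and 226 and 191 after THZ1, and PREB, which starts coat assembly, 30.8 and 30.8 under DMSO and 9.94 and 24.7 after THZ1. The higher calls of SEC11C and PPIB were lost with the sum of values or ribosomal protein genes as the reference, at which their changes were 0.36 and 0.37, and 0.05 and 0.04. All 4 calls were lost without either DMSO library of either line, or without CAL-62 THZ1 replicate 1. Each of those fits has 1 library in a group, and each also called fewer genes over all genes. In BCPAP none of these genes passed (limma).

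**Figure D5:**
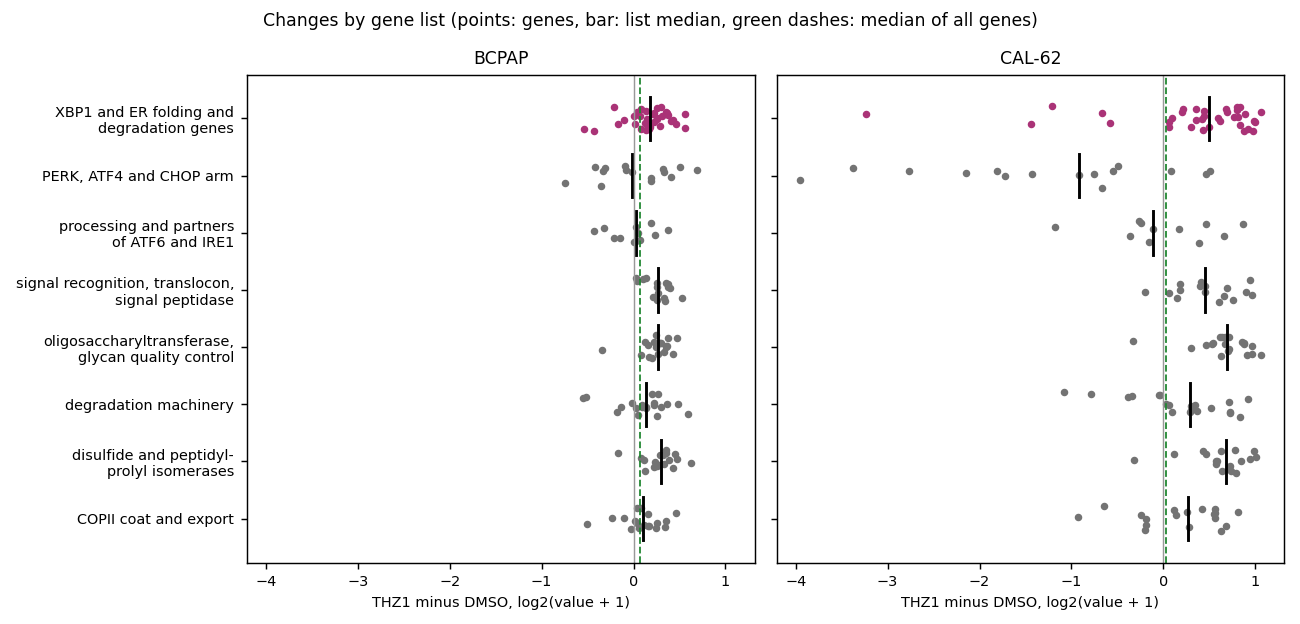
Change after THZ1 of each tested gene (points) by list, with list medians as bars and the median of all genes as a dashed line, for BCPAP and CAL-62 on the deposited scale. In CAL-62 the PERK, ATF4 and CHOP arm has a median of -0.92 (-0.34 without DMSO replicate 2). The oligosaccharyltransferase and isomerase lists have medians of 0.69 and 0.68 there (0.53 and 0.61 without DMSO replicate 2).

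The 8 members with an ERSE had CAL-62 changes from -3.24 (XBP1) to 0.92 (CRELD2), with a median of 0.63 and 7 of 8 positive on the deposited scale. Those of the 3 with an ERSE-II ran from -1.44 (HERPUD1) to 0.80 (HYOU1). Members that share an ERSE or an ERSE-II thus had changes of opposite sign on that scale, and no test was made of this.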

How the data were processed

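RNA was isolated with TRIzol and selected with oligo(dT), per the labels' protocols. Bowtie2 and the build hg19 are named, without a role, per the submitters' processing notes; of counter, annotation and strand setting nothing is given in the sources used here. In the authors' deposited files there is 1 RPKM-type value per gene and library (reads scaled to gene length and a library total), a unit inferred from the values. Whole reads within 0.02 were recovered for 12713 of 12715 genes. Against median-of-ratios size factors the deposited scaling was off by up to 2.22% in BCPAP and 2.12% in CAL-62. The lines' tables were scaled separately, so levels were not tested across lines.

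limma 3.58.1 (R 4.3.3), with a mean-variance trend, was fitted to log2(value + 1) for genes with a mean of at least 1, with a mean per group of 2 libraries. The spread of a gene was shared by all 8 libraries, or by the 4 of its line if listed for 1 line only. Changes on this scale understate those of low genes. Genes were called at a Benjamini-Hochberg adjusted p under 0.05, two-sided. The fit was tested on simulated data. Members and lists were chosen with earlier results of these data known. Values per library are given for XBP1, ATF6, HSPA5, called members and the 2 largest rises and falls of each role in CAL-62, and for called genes or extremes of each other list. CALR, SYVN1, SPCS1, DDIT3 and the marker genes were added after their values were seen. Alternatives changed the pseudocount, filter, scaling, model, replicate block and libraries.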

Additional observations from a re-analysis of the deposited data

How the results depend on the processing

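Counts of members here include XBP1, whose fall was known when it was chosen, so its part in them is no test. In CAL-62 the count was 2, XBP1 and PDIA6. With a pseudocount of 5, a mean value of at least 5, upper-quartile scaling or no mean-variance trend it was 1, without PDIA6, and with only the 4 libraries of the line 0. With libraries scaled to the sum of values it was 4, all lower, where 22.2% of all genes were called lower. With ribosomal protein genes as the reference it was 5, all lower, where 29% of all genes were called lower. There SERP1 had a change of -0.85 (limma adjusted p = 0.0458) and PDIA6 one of -0.12. Leaving out 1 library at a time gave 0 to 3 members, with 0 without CAL-62 DMSO replicate 2. The median member change of 0.50 became 0.47 with a pseudocount of 5, 0.60 with a mean of at least 5, 0.47 with median-of-ratios, 0.33 with upper-quartile, -0.14 with sum-of-values and -0.46 with ribosomal protein scaling, and 0.42 to 0.74 with 1 library left out. In BCPAP the median of 0.18 became -0.0327 and -0.0268 under the last 2 scalings.

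On the other pathway lists 4 genes passed in CAL-62, and 1 did with a mean of at least 5, 16 with sum-of-values, 24 with ribosomal protein scaling, 0 with the line's own libraries and 0 to 12 with 1 library left out. Over all genes the 525 calls (66 higher, 459 lower) became 196 with a mean of at least 5, 2543 (8 higher, 2535 lower) with sum-of-values, 3327 (4 higher, 3323 lower) with ribosomal protein scaling, 0 with the line's own libraries and 0 to 833 with 1 library left out.

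The labels number the replicates without saying what a number marks. Deviations of same-numbered libraries correlated at r = 0.779 in BCPAP and 0.469 in CAL-62, over genes and with 2 numbers a line, which is a hint from the data and not the design. With the replicate number as a block, 25 members (21 higher, 4 lower) and 72 genes of the other lists (59 higher, 13 lower) passed in CAL-62. Over all genes 4563 passed there, with 22% of the genes tested called higher and 18.1% lower. In BCPAP 0 genes passed. Besides XBP1, the members lower under the block were HERPUD1, DNAJB9 and SYVN1. The causes of these shifts were not tested. Read depth was lowest for DNAJB9, with 63 reads in 1 library.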
